A study of Mus musculus with 6 samples.

Results

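The genes described here encode immune checkpoint ligands, inhibitory receptors of macrophages and an immunosuppressive cytokine. They are the 10 symbols Cd47, Sirpa, Cd274, Pdcd1lg2, Lilrb4a, Pirb, Havcr2, Lgals9, Tgfb1 and Vsir, each matched exactly to the gene column of the deposited table. All 10 were present among its 19233 genes. The table came from RNA of polysome fractions, which hold mRNAs loaded with more than a lone ribosome. The cells were RAW264.7, a male mouse line used as a macrophage model, titled M2, the alternatively activated state. In 3 libraries the cells had received 500 nM BMH-21, a compound that blocks RNA polymerase I, the enzyme of ribosomal RNA synthesis, for 24 h from 24 h after polarization, and in 3 libraries the solvent DMSO. Both groups shared the line and the polarization. The treatment text speaks of bone-marrow-derived macrophages given IL-4, or interferon gamma with LPS, so the polarizing agent of the line itself is not stated. RAW264.7 is a transformed line, and the labels do not say that replicates were separate cultures. A polysome value reflects both the amount of an mRNA and its loading with ribosomes, and unfractionated RNA was not analysed here. The comparison asked how BMH-21 altered the polysome-associated mRNAs of these cells.

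Immune checkpoints are ligand and receptor pairs that restrain immune cells. Cd47 encodes a signal shown by most cells that tells macrophages not to engulf them, and Sirpa encodes its receptor on macrophages. Cd274 and Pdcd1lg2 encode PD-L1 and PD-L2, the ligands of the T cell receptor PD-1, and Lgals9 encodes galectin-9, a sugar-binding protein and a ligand of TIM-3, the product of Havcr2. Sirpa, Lilrb4a and Pirb encode receptors whose tails carry immunoreceptor tyrosine-based inhibition motifs (ITIMs), which recruit the phosphatases SHP-1 and SHP-2. Vsir encodes VISTA, which acts as ligand and receptor, and Tgfb1 encodes a cytokine that is secreted in a latent form and must be released.

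Promoter windows of 250 bases upstream of the annotated start were taken from RefSeq on GRCm38.p6, the assembly that mm10 names. Of the 10 members 8 matched, all but Lilrb4a and Sirpa, with 9 windows because Cd47 had 2. Windows are shown for the neighbouring PD-1 ligand genes and for the galectin-9 and TIM-3 pair, because both genes of each pair had lower values with BMH-21. Capitals mark every match to the 7 motifs searched, on both strands.
Cd274, chr19:29367188-29367437, plus strand: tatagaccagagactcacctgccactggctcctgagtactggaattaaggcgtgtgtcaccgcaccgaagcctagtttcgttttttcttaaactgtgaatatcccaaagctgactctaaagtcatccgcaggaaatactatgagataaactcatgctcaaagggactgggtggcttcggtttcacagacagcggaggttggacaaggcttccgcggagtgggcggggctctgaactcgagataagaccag
Pdcd1lg2, chr19:29410669-29410918, plus strand: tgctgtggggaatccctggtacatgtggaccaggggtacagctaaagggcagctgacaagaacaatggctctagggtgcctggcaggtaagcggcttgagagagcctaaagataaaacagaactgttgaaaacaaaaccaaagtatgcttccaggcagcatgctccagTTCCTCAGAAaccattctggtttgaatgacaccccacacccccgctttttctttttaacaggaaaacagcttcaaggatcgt
Lgals9, chr11:78984925-78985174, minus strand: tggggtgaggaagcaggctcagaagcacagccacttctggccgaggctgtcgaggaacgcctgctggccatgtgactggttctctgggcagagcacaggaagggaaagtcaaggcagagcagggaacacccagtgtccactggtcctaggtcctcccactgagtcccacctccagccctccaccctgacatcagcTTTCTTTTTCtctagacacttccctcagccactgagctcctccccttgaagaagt
Havcr2, chr11:46454681-46454930, plus strand: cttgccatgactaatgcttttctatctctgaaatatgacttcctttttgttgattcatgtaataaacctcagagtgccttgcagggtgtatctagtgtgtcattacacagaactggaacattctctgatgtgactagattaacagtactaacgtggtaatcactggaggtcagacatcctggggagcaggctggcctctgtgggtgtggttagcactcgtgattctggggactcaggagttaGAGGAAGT
The Pdcd1lg2 window held TTCCTCAGAA, starting 82 bases before the start, a match to TTC and GAA separated by 4 bases, the palindrome that STAT6 prefers. That motif was in 5.85% of 32851 promoter windows of the same length. The Cd274 window held none of the 7 motifs, nor did the windows of Tgfb1 and Vsir, which are not shown. The Lgals9 window held TTTCTTTTTC, a match to the interferon response core, GAAA and GAAA separated by 2 bases, on the opposite strand (2.98% of windows), and the Havcr2 window held the PU.1 core GAGGAAGT (2.44%). The PU.1 core was also in the Pirb window, together with the NF-kB core, GGG and TTCC separated by 3 bases (4.65%). Both Cd47 windows, which overlap, held the CREB and ATF site TGACGT on the opposite strand (6.47%). They lie at 49855404 to 49855653 and 49855411 to 49855660 on chromosome 16. These places are inside the Cd47 span given below from GENCODE, which begins at 49800533, so the 2 annotations differ in the start. The STAT palindrome with a 3-base spacer between TTC and GAA (7.02% of windows), and the E-box CACGTG (6.02%) were in 0 of 9 member windows. No 2 matches overlapped. A match is a description of the letters, not evidence of binding.

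Values are FPKM, that is, fragments divided by transcript length and by the size of the library, so levels can be compared between genes. The spacing of low values gave estimated depths of 21610000 to 24070000 reads (DMSO) and 18770000 to 22560000 reads (BMH-21). These are the smallest depths that explain the spacing, and a whole multiple of them would explain it too. Macrophage markers were present in every library: 7 of 8 reached 1 FPKM, all but Mertk, and their sum, most of it from Cd68, was 1217 to 1242 FPKM in DMSO and 1323 to 1350 FPKM in BMH-21. The single markers moved in both directions: of 7 tested with limma, Cd68, Spi1 and Itgam were called higher and Adgre1, Fcgr1, Csf1r and Ptprc lower. Adgre1, which encodes F4/80, went from 40.7 to 22.7 FPKM and Fcgr1 from 36.4 to 17.0 FPKM, and both were called lower under all 4 other scalings. The calls of Csf1r, Ptprc and Cd68 were each lost under 2 of these 4; the sign turned for Csf1r with median-ratio and upper-quartile scaling and for Cd68 with quantile normalization. The measured T cell, B cell, NK cell and fibroblast markers summed to at most 0.0918 FPKM per list in any library, the dendritic cell markers to at most 0.628 FPKM and the neutrophil markers to at most 0.492 FPKM. The 4 epithelial markers Epcam, Cdh1, Krt8 and Krt18 summed to 0 FPKM in DMSO replicate 1, 0.0880 FPKM in replicate 2 and 9.66 FPKM in replicate 3, and to 10.9 to 13.9 FPKM in the BMH-21 libraries. Their part in the members' values was not tested. Against DMSO replicate 3 alone, which held these transcripts as the BMH-21 libraries did, 7 of the 9 tested members were lower in every BMH-21 library, and Lilrb4a and Tgfb1 were higher in every one. Of all tested genes, 64.8% were lower and 24.6% higher in the same comparison, so these counts are near the background.

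With BMH-21, 6 of the 9 members that could be tested fell, 1 rose and 2 did not pass. Those that fell were Havcr2, Cd47, Lgals9, Pirb, Cd274 and Vsir, and the gene that rose was Lilrb4a. Sirpa and Tgfb1, the 2 members with the highest listed levels, did not pass. A gene was tested if it reached 1 FPKM in at least 3 libraries, and it was called at a Benjamini-Hochberg adjusted p under 0.05 from limma on log2(FPKM + 1). Pdcd1lg2 lay under that filter. Among all 9748 tested genes 58.4% were called lower, 19.9% higher and 78.3% in either direction, so a majority of falls among the members is close to the background. That split rested on the scaling: with median-ratio scaling 36.4% were called lower and 37.4% higher, and the members then divided into 4 lower and 3 higher. With quantile normalization 6 members were lower and 1 higher, beside 35.9% of all tested genes lower and 3517 of 9748 higher. The median log2 change was -0.36 over the 9 tested members and -0.23 over all tested genes. Groups did not overlap in 8 of the 9, with 7 lower and 1 higher in BMH-21, where 59.5% and 20.3% of all tested genes did so. In bulk RNA, fewer cells expressing a gene and less RNA per cell cannot be told apart.

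Levels spanned a wide range in both groups. In DMSO, Sirpa stood first at 139 ± 3.7 FPKM (SD, n = 3), followed by Tgfb1 at 59.6 ± 2.9 FPKM. Lgals9, Vsir and Cd47 followed at 34.3, 33.0 and 31.5 FPKM, and the ranges of neighbours among these 3 overlapped. Lilrb4a, Havcr2, Cd274, Pirb and Pdcd1lg2 came next in that order, each pair of neighbours with separate ranges. In BMH-21 the order was Sirpa, Tgfb1, Lilrb4a, Vsir, Lgals9, Cd47, Havcr2, Cd274, Pirb and Pdcd1lg2, and only the ranges of Havcr2 and Cd274 overlapped among neighbours. Lilrb4a as listed thus moved from the sixth to the third place in level. Its place is uncertain, because the gene model Gm49339 spans it on the same strand. The sum of both averaged 94.6 FPKM in DMSO, above Tgfb1, and 176 FPKM in BMH-21, above Sirpa. Gm49339 also covers bases outside Lilrb4a, so the sum is not a level of Lilrb4a. FPKM over different lengths also do not strictly add. Replicates varied little: the coefficient of variation of the 9 tested members lay between 1.13% and 10.7% within groups, with Cd274 the most variable in both, and that of Pdcd1lg2 was 21.7% in DMSO.

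**Figure D1:**
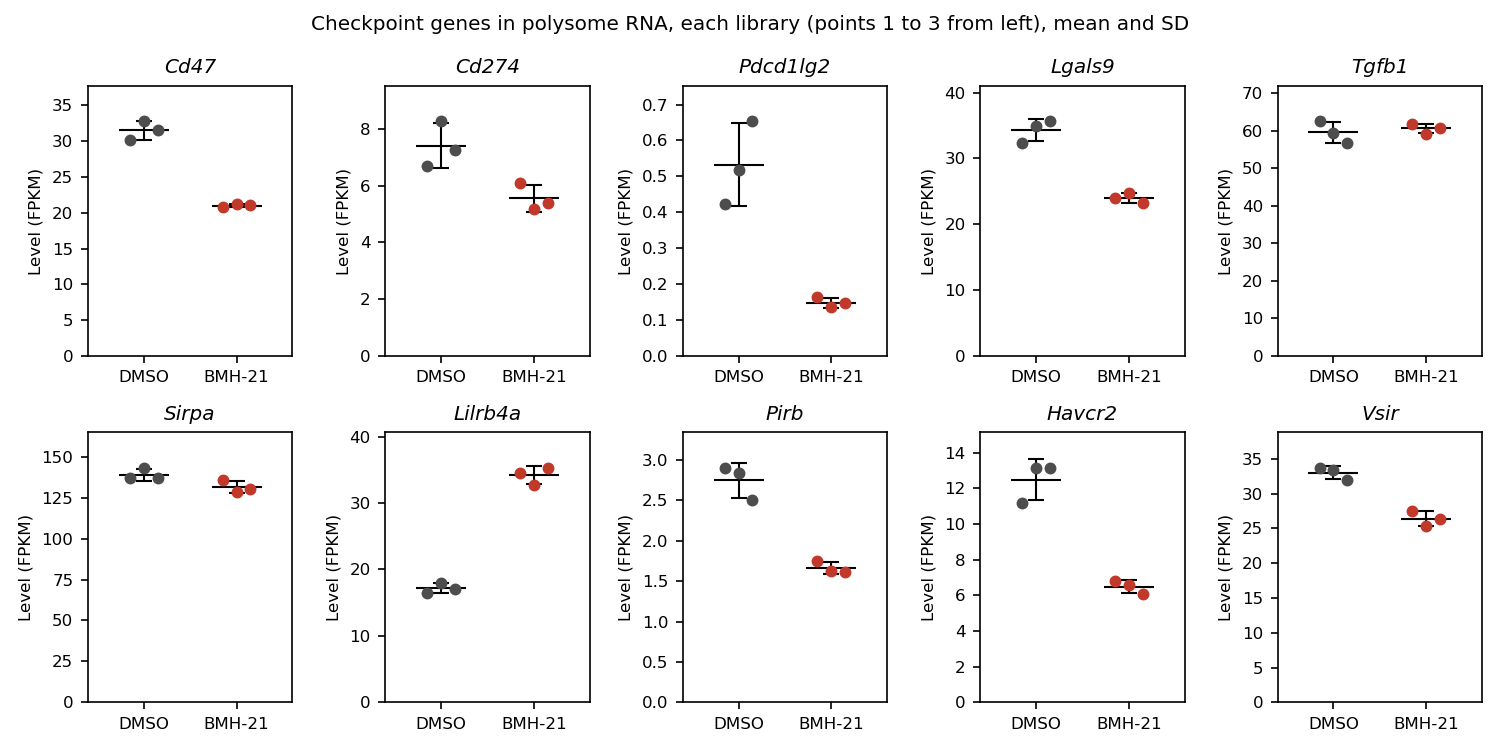
Level in FPKM (vertical axis, from 0, with its own scale for each gene) of the 10 members in each of 3 DMSO and 3 BMH-21 libraries; points are libraries 1 to 3 from left, and bars are the mean and SD. Lilrb4a lies at 32.7 to 35.3 FPKM in BMH-21 against 16.4 to 18.0 FPKM in DMSO, and Tgfb1 is the member whose groups overlap.

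Among the ligands, Cd47 (chromosome 16, 49800533 to 49915010) had 30.2, 32.8 and 31.6 FPKM in the DMSO libraries and 20.7, 21.2 and 21.0 FPKM with BMH-21. The highest BMH-21 library lay well under the lowest DMSO library. The log2 fold change was -0.56 ± 0.042 (SE, limma adjusted p = 9.48e-07). Lgals9 (chromosome 11, 78962974 to 78984946) had 32.4, 34.9 and 35.7 FPKM in DMSO and 23.9, 24.8 and 23.3 FPKM with BMH-21. It fell by 0.50 on the log2 scale (SE 0.047, limma adjusted p = 4.99e-06), again without overlap.

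The PD-1 ligands lie next to each other on chromosome 19, Cd274 at 29367455 to 29388095 and Pdcd1lg2 at 29410919 to 29471161, with 22823 bases between them. Cd274 had 6.71, 8.28 and 7.27 FPKM in DMSO and 6.09, 5.19 and 5.40 FPKM with BMH-21. The groups did not overlap, but the gap was small, with 6.09 FPKM in BMH-21 replicate 1 against 6.71 FPKM in DMSO replicate 1. The log2 fold change was -0.36 ± 0.076 (SE, limma adjusted p = 0.00145). Pdcd1lg2 was scarce: it had 0.424, 0.519 and 0.654 FPKM in DMSO and 0.163, 0.136 and 0.147 FPKM with BMH-21. These values stand for about 20, 22 and 29 reads in DMSO and about 6 in each BMH-21 library, as estimated from the depth and the length of its annotated exons. The depths are the smallest that explain the values, so these read numbers may be too low. The mean was 3.58-fold lower with BMH-21, and the groups did not overlap. With no filter on low values, limma called it lower (log2 change -0.41 on the log2(FPKM + 1) scale, adjusted p = 0.0025), where 33.5% of 19233 genes were called lower. An antisense gene on the opposite strand, A930007I19Rik, overlaps Pdcd1lg2 and was at 0.0545 and 0.0667 FPKM in DMSO and BMH-21. The library kit is not stated to mark the strand, so reads of the pair cannot be told apart.

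The cytokine gene Tgfb1 (chromosome 7, 25687002 to 25705077) had 62.6, 59.4 and 56.9 FPKM in DMSO and 61.8, 59.3 and 60.8 FPKM with BMH-21. The BMH-21 libraries lay within the DMSO range. Its log2 change of 0.025 had a 95% interval of -0.073 to 0.12 (limma adjusted p = 0.61).

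Among the ITIM receptors, Lilrb4a (chromosome 10, 51490956 to 51496611), a leukocyte immunoglobulin-like receptor, had 16.4, 18.0 and 17.1 FPKM in DMSO and 34.5, 32.7 and 35.3 FPKM with BMH-21. The log2 fold change was 0.95 ± 0.047 (SE, limma adjusted p = 5.4e-08), higher than that of 98.2% of tested genes. The gene model Gm49339 (chromosome 10, 51480612 to 51496613, same strand) spans Lilrb4a, and how the authors split shared reads is not given, so the value of either alone is uncertain. Gm49339 went from 77.4 ± 1.9 to 142 ± 14 FPKM (SD, n = 3), which limma also called higher (log2 change 0.86, adjusted p = 8.68e-07). The sum of both was 91.7 to 96.2 FPKM in DMSO and 161 to 186 FPKM in BMH-21, so it too was higher in every BMH-21 library. Gm49339 starts before Lilrb4a, at 51480612 against 51490956, so part of its reads may come from outside Lilrb4a. The symbol Lilrb4b was not in the deposited table, and how much of either value belongs to an inhibitory receptor was not tested.

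Pirb (chromosome 7, 3711409 to 3720391), the paired immunoglobulin-like receptor that binds MHC class I, moved the other way. It had 2.90, 2.84 and 2.50 FPKM in DMSO and 1.75, 1.63 and 1.61 FPKM with BMH-21. The log2 fold change was -0.49 ± 0.061 (SE, limma adjusted p = 3.59e-05), without overlap. Its activating relative Pira2, which shares much of its sequence, was at 0.469 ± 0.085 and 0.251 ± 0.060 FPKM (SD, n = 3), and the division of reads within this family is uncertain. Sirpa (chromosome 2, 129592835 to 129632228) had 137, 143 and 137 FPKM in DMSO and 136, 129 and 130 FPKM with BMH-21. The BMH-21 libraries were all below the DMSO libraries by a narrow margin, and the log2 change of -0.078 (95% interval -0.17 to 0.010) did not pass (limma adjusted p = 0.094).

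Havcr2 (chromosome 11, 46454935 to 46481255), which encodes TIM-3, had 11.2, 13.1 and 13.2 FPKM in DMSO and 6.83, 6.56 and 6.08 FPKM with BMH-21. The log2 fold change, -0.85 ± 0.067 (SE, limma adjusted p = 1.39e-06), was the largest fall among the tested members, and 8.72% of tested genes had a lower value. Vsir (chromosome 10, 60346851 to 60372684) had 33.7, 33.4 and 31.9 FPKM in DMSO and 27.5, 25.3 and 26.3 FPKM with BMH-21. It fell by 0.31 on the log2 scale (SE 0.044, limma adjusted p = 8.93e-05), the smallest change among the called members. Vsir lies inside Cdh23, which runs on the opposite strand and was at 0.0068 and 0.0039 FPKM in DMSO and BMH-21.

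FPKM are shares of a library, and the members' calls depended in part on the scaling between libraries. Median-ratio scaling moved the median of all tested genes by 0.23 on the log2 scale, and upper-quartile scaling by 0.20. With both, Lilrb4a was still called higher and Havcr2, Cd47, Lgals9 and Pirb lower, at -0.59, -0.29, -0.23 and -0.30 with median-ratio scaling. Cd274 and Vsir no longer passed, at -0.11 and -0.041. Sirpa turned and was called higher, at 0.20, and Tgfb1 was called higher, at 0.30. Upper-quartile scaling gave the same counts, 3 higher and 4 lower, beside 34.4% of all tested genes higher and 39.8% lower. Quantile normalization also lost the call of Cd274, at -0.057, and called Sirpa lower, at -0.11, where it called 35.9% of all tested genes lower. Column totals made equal called Sirpa lower too, at -0.20, and 67.9% of all tested genes. Relative to the median of all genes as deposited, Havcr2 was at -0.61, Cd47 at -0.33, Vsir at -0.082, Sirpa at 0.15, Tgfb1 at 0.26 and Lilrb4a at 1.18.

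**Figure D2:**
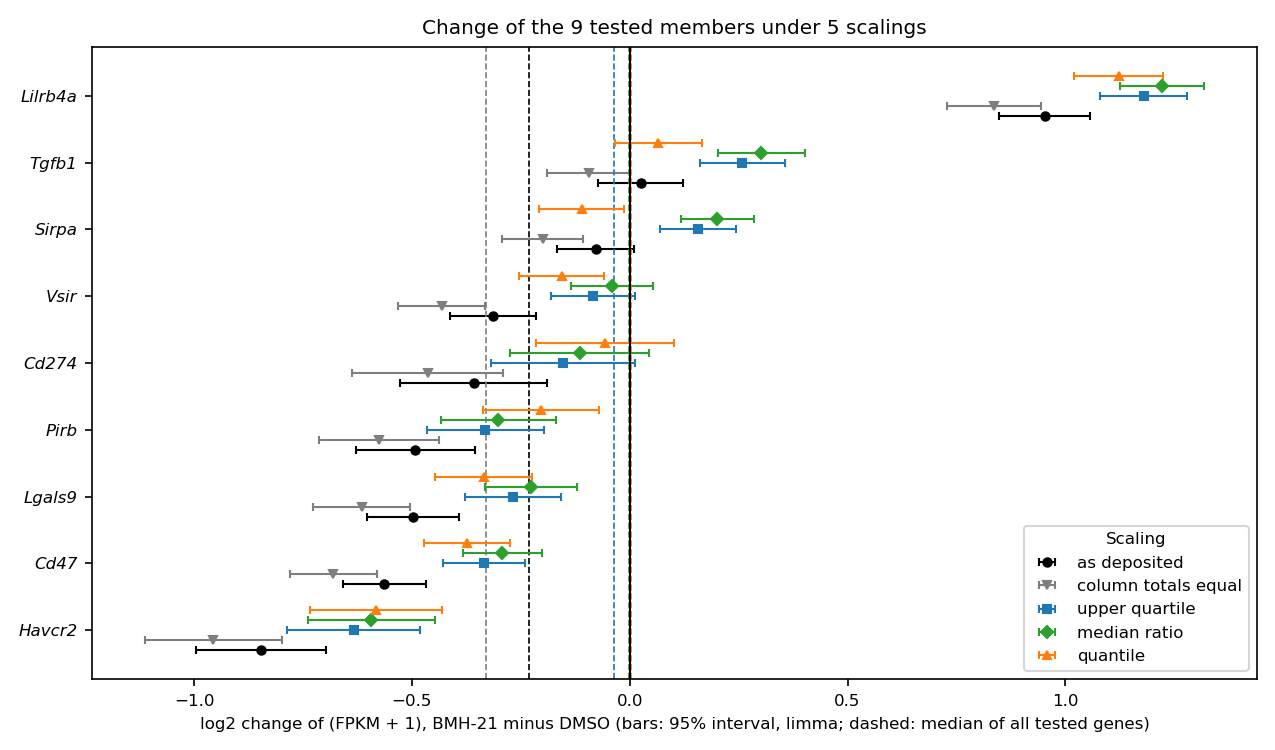
Log2 change of (FPKM + 1), BMH-21 minus DMSO (horizontal axis), of the 9 tested members under 5 scalings; bars are 95% intervals from limma and dashed lines the median of all tested genes under each scaling. Lilrb4a stays above 0 and Havcr2, Cd47, Lgals9 and Pirb stay below 0 under all 5, whereas Sirpa and Tgfb1 change side.

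Ratios of members within a library do not depend on scaling by 1 factor per library, apart from the pseudocount, so 3 were computed. Quantile normalization is not of that kind, and the ratios were not recomputed with it. It gave log2 changes of -0.11 for Sirpa and -0.37 for Cd47, against -0.078 and -0.56 as deposited. For Havcr2 and Lgals9 it gave -0.58 and -0.34, against -0.85 and -0.50, so both pairs lay closer together. The ratio of the receptor Sirpa to its ligand Cd47 was 4.33 to 4.53 with DMSO and 6.07 to 6.55 with BMH-21. On the log2 scale it was 2.11 ± 0.033 and 2.59 ± 0.056 (SD, n = 3), a difference of 0.48 (exact two-sided permutation test p = 0.10, adjusted over 3 ratios p = 0.15). The ratio of the receptor Havcr2 to its ligand Lgals9 was 0.345 to 0.376 in DMSO and 0.261 to 0.286 in BMH-21, a log2 difference of -0.35 (exact p = 0.10, adjusted p = 0.15). Neither ratio overlapped between the groups, and 0.10 is the smallest p that 3 against 3 libraries can give. Separation was common here: 59.5% of single tested genes were lower and 20.3% higher without overlap. The share of other gene pairs whose ratios separate was not computed. The ratio of Cd274 to Pdcd1lg2 was 11.1 to 15.9 in DMSO and 36.7 to 38.3 in BMH-21 before a pseudocount was added. With a pseudocount of 1 FPKM, which exceeds every Pdcd1lg2 value, the log2 difference was 0.055 (exact p = 0.60), and with 0.1 FPKM it was 0.92 (exact p = 0.10).

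**Figure D3:**
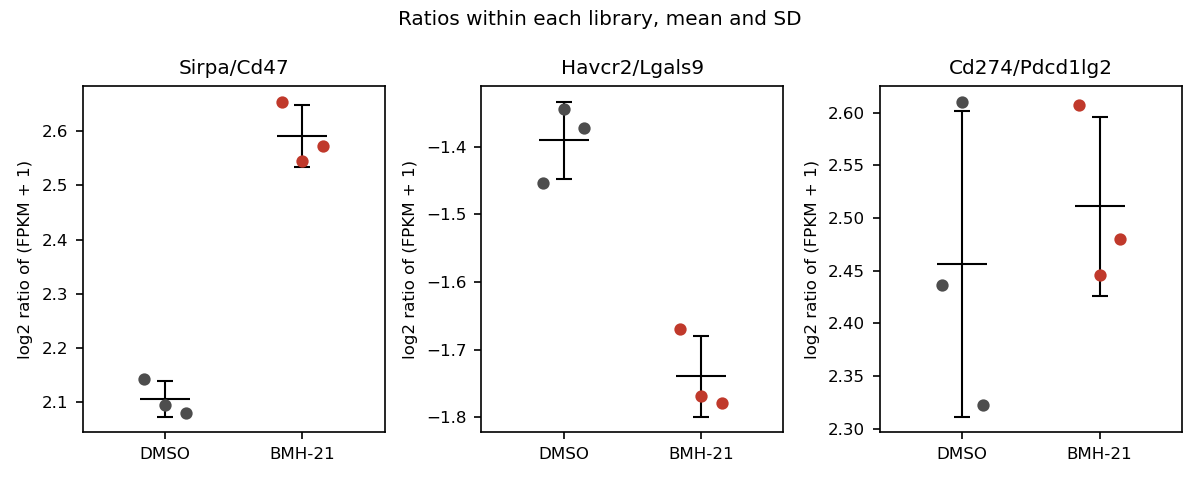
Log2 ratio of (FPKM + 1) within each library (vertical axis) for Sirpa to Cd47, Havcr2 to Lgals9 and Cd274 to Pdcd1lg2; points are 3 libraries per group, bars the mean and SD. The first ratio is higher and the second lower in every BMH-21 library, and the third overlaps on this scale.

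Further checkpoint genes moved in both directions. Of 30 listed, 28 were in the table and 13 were tested, of which 3 rose, 7 fell and 3 did not pass, with a median log2 change of -0.21 (5 higher and 3 lower with median-ratio scaling). Cd200r1, the inhibitory receptor for CD200, rose from 19.1 ± 0.92 to 38.1 ± 1.3 FPKM (SD, n = 3). The B7 genes Cd80 and Cd86, whose products bind CD28 and CTLA-4 on T cells, went opposite ways: Cd80 rose from 1.63 ± 0.24 to 4.17 ± 0.31 FPKM and Cd86 fell from 1.62 ± 0.20 to 0.579 ± 0.062 FPKM. Nectin2, a ligand of TIGIT and DNAM-1, fell from 11.2 ± 0.64 to 5.01 ± 0.20 FPKM. The T cell checkpoint receptor genes Pdcd1, Ctla4, Tigit, Lag3 and Btla were below the filter.

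Of 10 tested ITIM receptor genes of myeloid cells besides the members, 4 rose, 5 fell and 1 did not pass, with a median of -0.069 (5 higher and 3 lower with median-ratio scaling). The C-type lectin gene Clec4a2 rose from 5.23 ± 0.28 to 15.8 ± 0.25 FPKM (SD, n = 3), Cd72 from 105 to 158 FPKM and the allergin-1 gene Milr1 from 24.9 to 37.3 FPKM. The inhibitory Fc receptor gene Fcgr2b fell from 16.5 ± 0.47 to 7.06 ± 0.56 FPKM. Of 14 phosphatases, adaptors and kinases that act on ITIMs, 11 fell, 2 rose and 1 did not pass, with a median of -0.46 (3 higher and 8 lower with median-ratio scaling). Ptpn6, which encodes SHP-1, had 26.9, 27.4 and 26.6 FPKM in DMSO and 10.8, 10.5 and 11.4 FPKM with BMH-21 (log2 fold change -1.23, limma adjusted p = 6.36e-09). Ptpn11, which encodes SHP-2, fell from 25.7 ± 1.1 to 18.8 ± 0.55 FPKM. The tyrosine kinase gene Src rose from 4.50 to 12.2 FPKM. Csk, which restrains Src family kinases, fell from 62.9 to 36.2 FPKM.

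Around Cd47 and Sirpa, 10 of 13 listed genes were tested, and 6 rose and 4 fell, with a median of 0.38. Qpctl, whose product modifies CD47 so that SIRPA can bind it, rose from 5.61 ± 0.12 to 7.77 ± 0.23 FPKM (SD, n = 3). Calr, the engulfment signal calreticulin, rose from 123 to 156 FPKM, and the integrin genes Itgb2 and Itgam, which together encode complement receptor CR3, rose from 26.0 to 51.7 FPKM and from 8.33 to 11.6 FPKM. The adaptor gene Skap2 fell from 10.1 to 7.15 FPKM.

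Of 24 tested genes that control PD-L1 and PD-L2, 20 fell, 1 rose and 3 did not pass, with a median of -0.25 (5 higher and 11 lower with median-ratio scaling). The interferon gamma receptor chains moved apart: Ifngr1 fell from 17.6 ± 0.46 to 8.49 ± 0.54 FPKM and Ifngr2 rose from 19.1 ± 0.55 to 31.3 ± 0.46 FPKM (SD, n = 3). Nfkb1 fell from 6.77 to 3.21 FPKM and the feedback inhibitor gene Socs3 from 4.33 to 1.79 FPKM. Stat6, the transcription factor of IL-4 signalling, was called lower, from 11.0 to 8.89 FPKM, a call lost with median-ratio and upper-quartile scaling and quantile normalization. Il4ra, the IL-4 receptor chain, was scarce, with 0.256, 0.324 and 0.449 FPKM in DMSO and 0.142, 0.096 and 0.144 FPKM with BMH-21, and was not tested. Cmtm6, which stabilizes PD-L1 at the surface, was called lower, from 37.0 to 34.0 FPKM, but turned to higher with median-ratio and upper-quartile scaling.

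Of 9 tested genes around TIM-3 and the galectins, 3 rose, 5 fell and 1 did not pass (4 higher and 4 lower with median-ratio scaling). The galectin gene Lgals1 rose from 1470.3 ± 27 to 2689 ± 89 FPKM (SD, n = 3), in the opposite direction to Lgals9. Hmgb1, whose product is another ligand of TIM-3, fell from 62.3 ± 2.4 to 20.8 ± 0.42 FPKM. P4hb, a disulfide isomerase that galectin-9 binds, fell from 262 to 147 FPKM, and the kinase gene Fyn from 27.5 to 16.2 FPKM. Selplg, which encodes PSGL-1, a partner of VISTA, was tested out of 3 listed partners and fell from 10.3 ± 0.60 to 5.89 ± 0.28 FPKM.

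Of 16 tested genes of TGF-beta release and signalling, 4 rose, 9 fell and 3 did not pass, with a median of -0.20 (7 higher and 6 lower with median-ratio scaling). Tgfb2 and Tgfb3 were below the filter. Nrros, whose product holds latent TGF-beta1 on macrophages, fell from 59.3 ± 2.8 to 39.5 ± 1.3 FPKM (SD, n = 3). Furin, the protease that cleaves the TGF-beta1 precursor, fell from 21.8 to 15.1 FPKM, and the integrin gene Itgb5 from 34.5 to 16.8 FPKM. Tgif1, a repressor of SMAD signalling, rose from 10.2 to 13.8 FPKM. Lrrc32, which holds latent TGF-beta1 on regulatory T cells, was at 0.0502 and 0.137 FPKM and was not tested. Of 6 tested suppressive mediators 5 fell and 1 rose, with a median of -0.65. The groups overlapped in 2 of the 6. Without overlap, 4 were lower and 0 higher in BMH-21, beside 59.5% and 20.3% of all tested genes. The arginase gene Arg1 fell from 4.29 to 0.692 FPKM, the angiogenic factor gene Vegfa from 9.56 to 4.40 FPKM, the amino acid oxidase gene Il4i1 from 8.04 to 4.68 FPKM and Entpd1, the ectonucleotidase CD39, from 1.39 to 0.557 FPKM. All list counts stand beside the 58.4% of tested genes called lower and 19.9% called higher, or 36.4% and 37.4% with median-ratio scaling.

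**Figure D4:**
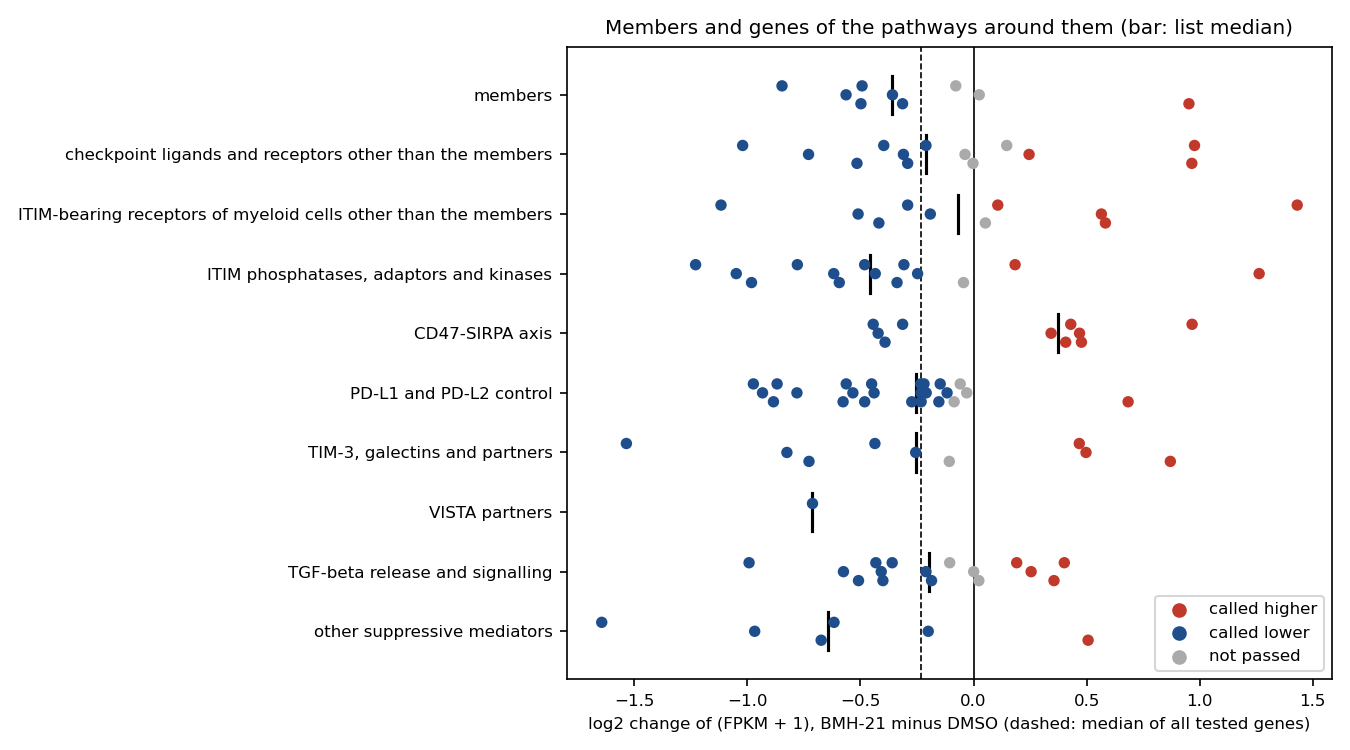
Log2 change of (FPKM + 1), BMH-21 minus DMSO (horizontal axis), of the 9 tested members and of the tested genes of 9 surrounding lists; colours give the limma call, short bars the list median and the dashed line the median of all tested genes, -0.23. The list medians run from -0.71 for the lone VISTA partner tested to 0.38 for the genes around Cd47 and Sirpa.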

How the data were processed

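RNA from polysome fractions was measured in 6 libraries, 3 per group, grouped by sample title. The tools named per the submitters' processing notes are Trimmomatic 0.38, HISAT2 and SAMtools, with build mm10. The counting tool is not given in the sources used here, nor is the annotation. The FPKM values of the single table were deposited as normalized by the authors to transcript length and library size; the labels do not name this unit, which was taken from the column sums and gene-specific steps. DMSO replicate 2 is labelled polyadenylated RNA, the other libraries total RNA. For genes with 1 transcript, 75.4% to 77.5% of low values (at most 20 reads) lay within 0.01 of whole reads, so depths are estimates and no count model was fitted. Values were tested as log2(FPKM + 1) with limma 3.58.1 in R 4.3.3 (intensity trend, two-sided, adjusted over 9748 genes), which understates changes of low genes. The fit was checked on simulated data with independent noise for each gene and no shift between libraries. That check cannot bear on the scaling. Separate cultures are not stated, so p-values cover the spread between these libraries alone, which may be technical. Positions are from GENCODE M21 (GRCm38). Named genes were all members, up to 4 genes with the smallest p in each list, and Ptpn6, Ptpn11, Qpctl, Cmtm6, Nrros, Lrrc32, Il4ra and Stat6, except 1 gene that is not reported here; the below-filter and related genes were chosen after their values were seen. Members and lists were chosen with earlier results of these data known. Alternatives covered pseudocount, filter, scaling, a replicate block and leaving out each library.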

Additional observations from a re-analysis of the deposited data

How the results depend on the processing

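Havcr2, Cd47, Lgals9, Pirb and Lilrb4a kept direction and call under every alternative that tested them; Pirb was not tested with the filter at 5 FPKM. Leaving out each library gave 1 member higher and 6 lower every time. Tgfb1 was then between -0.0076 and 0.060 on the log2 scale, with the negative value without DMSO replicate 3, and was -0.095 with column totals made equal. Sirpa was at 0.20 with median-ratio and 0.16 with upper-quartile scaling, -0.11 with quantile normalization and -0.20 with column totals made equal. Tgfb1 was at 0.30 and 0.26 with median-ratio and upper-quartile scaling, Cd274 at -0.11, -0.15 and, with quantile normalization, -0.057, and Vsir at -0.041 and -0.084. Both of these scalings called 3 members higher. Cmtm6 was at 0.16 and 0.11 with them. The cause was not tested beyond the shift of the all-gene median. Over all genes, 3643 were higher with median-ratio, 3349 with upper-quartile and 3517 with quantile scaling, and lower were 3546 with median-ratio, 3498 with quantile and, with fewer genes tested, 3465 with the filter at 5 FPKM. A pseudocount of 0.1 FPKM moved Pdcd1lg2 to -1.33, the Havcr2 to Lgals9 ratio to -0.42 and the Cd274 to Pdcd1lg2 ratio to 0.92.

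Other checkpoint genes numbered 1 higher and 4 lower with the 5 FPKM filter, 5 and 3 with median-ratio, 4 lower with upper-quartile, and 6 and 4 with quantile scaling. Other ITIM receptors were 3 lower with each of these settings. ITIM phosphatases, adaptors and kinases were 1 higher with column totals made equal, and genes around Cd47 and Sirpa 2 lower with quantile scaling. PD-L1 and PD-L2 control genes were 5, 3 and 5 higher with median-ratio, upper-quartile and quantile scaling and 11 lower with each, or 12 with the 5 FPKM filter. TGF-beta genes were 7 and 8 higher with median-ratio and quantile scaling. Suppressive mediators were 2 higher with no filter, and 0 higher and 2 lower at 5 FPKM.

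With the replicate block, 1894 genes were higher and 5608 lower, and no member changed its call. In the lists, other ITIM receptors then numbered 3 higher instead of 4 (Cd300a lost its call), suppressive mediators 4 lower instead of 5 (Mrc1), PD-L1 and PD-L2 control genes 19 lower instead of 20 (Stat3), and other checkpoint genes 4 higher instead of 3 (Cd276 gained one). Cd300a also lost its call without BMH-21 replicate 1 or 3 or DMSO replicate 1 or 3, and Mrc1 without BMH-21 replicate 2 or 3 or DMSO replicate 2 or 3. Cd300a, Mrc1, Stat3 and Cd276 were named after their values were seen. Leaving out each library gave 18 or 19 PD-L1 and PD-L2 control genes lower. Same-numbered libraries did not deviate together (correlations of deviations across genes -0.11, -0.094 and -0.064), so the numbers were not taken as pairs. Depth limits Pdcd1lg2 most, at about 6 reads per BMH-21 library if the smallest fitting depth holds.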

Other observations

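The epithelial markers divided the libraries in a way the groups do not. Epcam, the epithelial cell adhesion molecule, and Cdh1, E-cadherin, were listed at 0 in DMSO replicates 1 and 2. In DMSO replicate 3 they were at 0.483 and 0.425 FPKM, and in the BMH-21 libraries at 0.388 to 0.635 and 0.388 to 0.525 FPKM. The keratin gene Krt8 was at 0, 0.0236 and 3.27 FPKM in the DMSO libraries and at 3.60 to 4.22 FPKM with BMH-21. The keratin gene Krt18 was at 0, 0.0644 and 5.47 FPKM in the DMSO libraries and at 6.41 to 8.89 FPKM with BMH-21. Their level in DMSO replicate 3 thus resembled the BMH-21 libraries more than the other DMSO libraries. These genes were chosen as markers of a cell type the line should lack, and where the transcripts came from was not tested.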
